A study of Mus musculus with 12 samples.

Results

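The abundance of 10 acute phase transcripts was examined in mouse liver: the serum amyloid A genes Saa1, Saa2 and Saa3, the orosomucoid genes Orm1, Orm2 and Orm3, the lipocalin gene Lcn2, the inter-alpha-inhibitor chain genes Itih3 and Itih4, and the metalloreductase gene Steap4. They were taken by name from a table of 24983 genes, and all 10 had enough counts to be tested. RNA came from 12 livers of C57BL/6J mice, 3 in each of 4 groups. Of the mice fed a diet meant to cause nonalcoholic steatohepatitis (NASH, fatty liver with inflammation), 3 were infused with OA-NO2, 3 with OA and 3 with the solvent alone. OA is oleic acid, a common fatty acid, and OA-NO2 is its nitrated form, with a nitro group on the chain. Both were dissolved in polyethylene glycol (PEG) and given at 5 mg/kg/day from a minipump under the skin, and the vehicle mice received PEG. The NASH diet drew 40% of its calories from fat, was enriched in cholesterol, fructose, trans fat and saturated fat, and was fed for 24 weeks. The remaining 3 mice ate standard chow. No pump is named in the labels of the chow mice, so effects of the diet and of the pump with its solvent cannot be told apart. Neither sex nor age is given in the sources used here.

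The acute phase response is the change in the blood proteins made by the liver during injury, infection or inflammation. Hepatocytes answer interleukin 6 and related cytokines through STAT3, and interleukin 1 and TNF through NF-kB, with factors of the C/EBP family acting on many of the same genes. Proteins that go up are called positive acute phase proteins, and those that go down, albumin among them, are called negative.

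Total counts ran from 8462590 in chow replicate 1 to 20613777 in vehicle replicate 3, and the next lowest total was 15972613. Levels are given as CPM, counts scaled to a common library total, with totals adjusted by the trimmed mean of M values (TMM). With library size alone, the 14469 genes tested had median log2 fold changes of 0.34 (OA-NO2 over chow), 0.42 (OA over chow) and 0.51 (vehicle over chow), so every change is relative to the TMM scale. Among the NASH diet groups the same shift was between -0.18 and -0.09. The label of liver was checked against 7 hepatocyte markers, which summed to between 46492 and 154885 CPM in every library. OA replicate 3 stood apart from the other OA livers, with the lowest OA value for 7 of the 10 genes and the highest for 0. Vehicle replicate 1 held the lowest vehicle value for 7 genes and vehicle replicate 2 the highest for 8. In bulk tissue, fewer cells of a type and less RNA per cell cannot be told apart.

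Promoters of 6 genes are shown: Saa1, Saa2, Orm2, Orm3, Lcn2 and Steap4. Each of these holds a match to a motif described below. The windows of Saa3 and Itih3, not shown, held no match to these motifs, though Saa3 was called higher than chow with OA and with vehicle. Each sequence is the stretch of 250 bases just before the RefSeq start site, 5′ to 3′ on the gene's own strand, from RefSeq on GRCm38.p6. It is in lower case, with matches to 3 motifs in capitals: the C/EBP motif TTGCNCAA, the STAT3 motif TTCNNNGAA and the NF-kB consensus, each searched on both strands. The windows are chr7:46742981-46743230 (minus strand) for Saa1, chr7:46751583-46751832 (plus) for Saa2, chr4:63362199-63362448 (plus) for Orm2, chr4:63355908-63356157 (plus) for Orm3, chr2:32387740-32387989 (minus) for Lcn2 and chr5:7960222-7960471 (plus) for Steap4.
Saa1: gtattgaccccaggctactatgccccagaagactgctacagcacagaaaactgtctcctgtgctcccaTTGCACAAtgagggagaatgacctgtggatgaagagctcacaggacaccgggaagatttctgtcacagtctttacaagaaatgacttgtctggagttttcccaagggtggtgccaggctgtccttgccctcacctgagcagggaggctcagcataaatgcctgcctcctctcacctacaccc
Saa2: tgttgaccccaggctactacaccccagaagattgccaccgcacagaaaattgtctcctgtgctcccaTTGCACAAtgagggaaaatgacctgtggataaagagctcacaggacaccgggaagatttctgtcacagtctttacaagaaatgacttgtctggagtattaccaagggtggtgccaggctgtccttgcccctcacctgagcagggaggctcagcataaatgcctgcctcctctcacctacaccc
Orm2: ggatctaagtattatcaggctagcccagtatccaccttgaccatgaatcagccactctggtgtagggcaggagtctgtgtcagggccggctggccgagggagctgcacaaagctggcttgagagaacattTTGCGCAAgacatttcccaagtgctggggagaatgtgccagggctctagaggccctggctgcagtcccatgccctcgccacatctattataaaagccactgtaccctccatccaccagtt
Orm3: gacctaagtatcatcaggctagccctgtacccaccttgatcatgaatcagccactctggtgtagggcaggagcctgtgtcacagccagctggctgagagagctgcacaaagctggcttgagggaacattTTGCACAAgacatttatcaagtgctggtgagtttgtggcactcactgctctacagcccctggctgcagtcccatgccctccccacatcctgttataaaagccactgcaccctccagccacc
Lcn2: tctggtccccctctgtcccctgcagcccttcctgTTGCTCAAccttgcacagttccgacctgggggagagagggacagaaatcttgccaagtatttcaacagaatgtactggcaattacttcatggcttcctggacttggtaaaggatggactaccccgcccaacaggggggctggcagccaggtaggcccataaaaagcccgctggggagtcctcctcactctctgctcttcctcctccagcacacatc
Steap4: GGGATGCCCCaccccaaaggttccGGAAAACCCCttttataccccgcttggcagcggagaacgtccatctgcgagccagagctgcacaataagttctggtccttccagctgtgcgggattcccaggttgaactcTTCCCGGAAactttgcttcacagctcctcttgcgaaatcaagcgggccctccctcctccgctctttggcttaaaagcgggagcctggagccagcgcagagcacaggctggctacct
Letters of the C/EBP motif were present in 5 of the 9 members that had a promoter entry, against 2.60% of 27025 mouse promoters of the same length. In Saa1 and Saa2 the match was TTGCACAA, at positions -182 to -175 and -183 to -176 from the start. Orm2 carried TTGCGCAA and Orm3 carried TTGCACAA at nearly the same place, -120 to -113 and -121 to -114, and Lcn2 carried TTGCTCAA at -216 to -209. The Steap4 window held the STAT3 match TTCCCGGAA at -116 to -108, and 2 matches to the NF-kB consensus that overlapped no other match. STAT3 letters were present in 2 of 9 members, Itih4 and Steap4, against 7.18% of promoters, and NF-kB letters in 1 of 9 against 3.75%. A match describes the letters of the window and is no evidence of binding. Over these windows Saa1 and Saa2 were 94.8% identical and Orm2 and Orm3 85.9%. The 5 C/EBP matches are therefore not independent, and their count overstates the excess over all promoters. The Itih4 window is not shown, and Orm1 had no promoter entry.

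The family copies lie side by side in the mouse genome, and their transcripts are close enough that reads may be shared. On GRCm38, with the GENCODE M21 annotation, Saa1 (ENSMUSG00000074115) spans chromosome 7, 46740497 to 46742980 on the minus strand, and Saa2 (ENSMUSG00000057465) spans 46751790 to 46754313 on the plus strand. Saa3 (ENSMUSG00000040026) lies beside them at 46711998 to 46715700, minus strand. Orm1 (ENSMUSG00000039196), Orm3 (ENSMUSG00000028359) and Orm2 (ENSMUSG00000061540) follow one another on the plus strand of chromosome 4, at 63344560 to 63348163, 63356162 to 63359511 and 63362449 to 63365878. Itih4 (ENSMUSG00000021922, plus strand) and Itih3 (ENSMUSG00000006522, minus strand) are neighbours on chromosome 14, at 30886476 to 30902353 and 30908572 to 30923760. Lcn2 (ENSMUSG00000026822) is on chromosome 2, 32384633 to 32388252, minus strand, and Steap4 (ENSMUSG00000012428) on chromosome 5, 7960457 to 7982213, plus strand. The main transcripts of Saa1 and Saa2 were 93.9% identical, and 4.49% of the windows of 76 bases in Saa1, the read length, also occurred in Saa2. Orm1 and Orm2 shared 13.6% of their windows. The other 6 members shared 0 windows with another gene. No other annotated gene overlapped a member.

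Per kilobase of main transcript, which allows levels of different genes to be set side by side, Orm1 was the most abundant of the 10 in all 4 groups. It averaged 806 CPM per kilobase with OA-NO2, 1086 with OA, 771 with vehicle and 875 in chow. In chow it was followed by Itih4 at 444, Itih3 at 386 and Saa1 at 133, and the 6 other genes were between 5.78 (Saa3) and 38.7 (Steap4). By their means, Saa1 and Lcn2 stood higher in that order on the NASH diet than in chow. Saa1 had rank 3 with OA-NO2, at 274 CPM per kilobase, and rank 2 with OA and with vehicle, at 584 and 465. Lcn2 had rank 6 with OA-NO2, at 94.7, rank 4 with OA, at 406, rank 6 with vehicle, at 161, and rank 8 in chow, at 18.3. Saa3 was the lowest of the 10 in chow and in the other groups, at 17.4 with OA-NO2, 23.3 with OA and 17.4 with vehicle. Of the 9 neighbouring pairs in the order, the libraries of 3 overlapped with OA-NO2, of 7 with OA, of 7 with vehicle and of 6 in chow. Steap4, Saa2 and Orm2 could not be ordered in chow, nor Saa1 and Itih3 with OA-NO2, nor Saa1 and Itih4 with OA or with vehicle. With OA, Lcn2 could not be ordered against Itih4 or Itih3. The 10 genes together took 0.345% ± 0.0637 of all counts with OA-NO2, 0.543% ± 0.151 with OA, 0.386% ± 0.0662 with vehicle and 0.295% ± 0.0891 in chow (SD, n = 3 each).

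**Figure D1:**
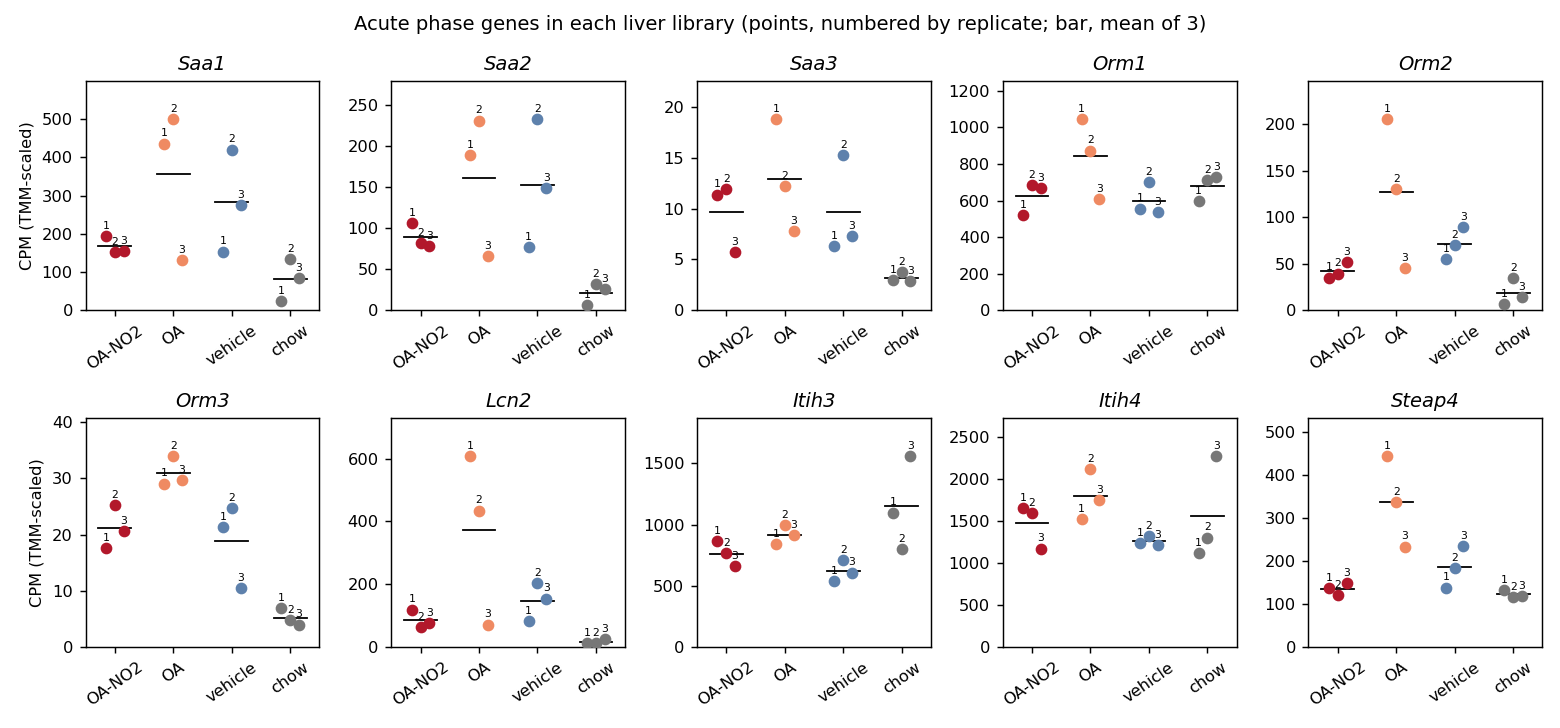
Level of each acute phase gene in every liver library, in TMM-scaled CPM on a linear axis that starts at 0. Points are single mice numbered by replicate, and the bar is the mean of 3. OA replicate 3 lies far below OA replicates 1 and 2 for Saa1, Saa2, Orm2 and Lcn2, and the chow livers lie lowest for Saa2, Saa3, Orm3 and Lcn2.

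In the vehicle and OA livers the serum amyloid, minor orosomucoid and lipocalin transcripts rose over chow, and the main orosomucoid did not pass the test. Steap4 rose with OA and Itih3 fell with vehicle. With OA-NO2 Orm3 alone passed the test, though 6 members lay wholly above chow there. In the vehicle livers against chow, 7 of the 10 genes passed an adjusted p under 0.05 in edgeR's quasi-likelihood test, where 19.3% of all tested genes did. Of these, 6 were higher, against 11.1% of genes, and 1 was lower, against 8.16%. The median log2 fold change of the 10 was 1.68, and that of all tested genes was -0.01. The values of 8 members did not overlap between vehicle and chow, against 39.4% of genes. In the OA livers against chow 7 members passed, all of them higher, against 8.56% of genes in either direction and 6.33% higher, with a median of 2.06. There 6 members did not overlap, against 30.9% of genes. In the OA-NO2 livers against chow 1 member, Orm3, passed, against 0.684% of genes, and the median was 1.10. At an unadjusted p under 0.05 in that comparison there were 6 members, against 18.8% of genes, and 6 did not overlap with chow, all higher, against 12.3% of genes. All 3 comparisons use the same 3 chow livers, so their folds are given side by side only. The number passing in 1 comparison and not in another is no test of the difference between them, which is given further on.

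**Figure D2:**
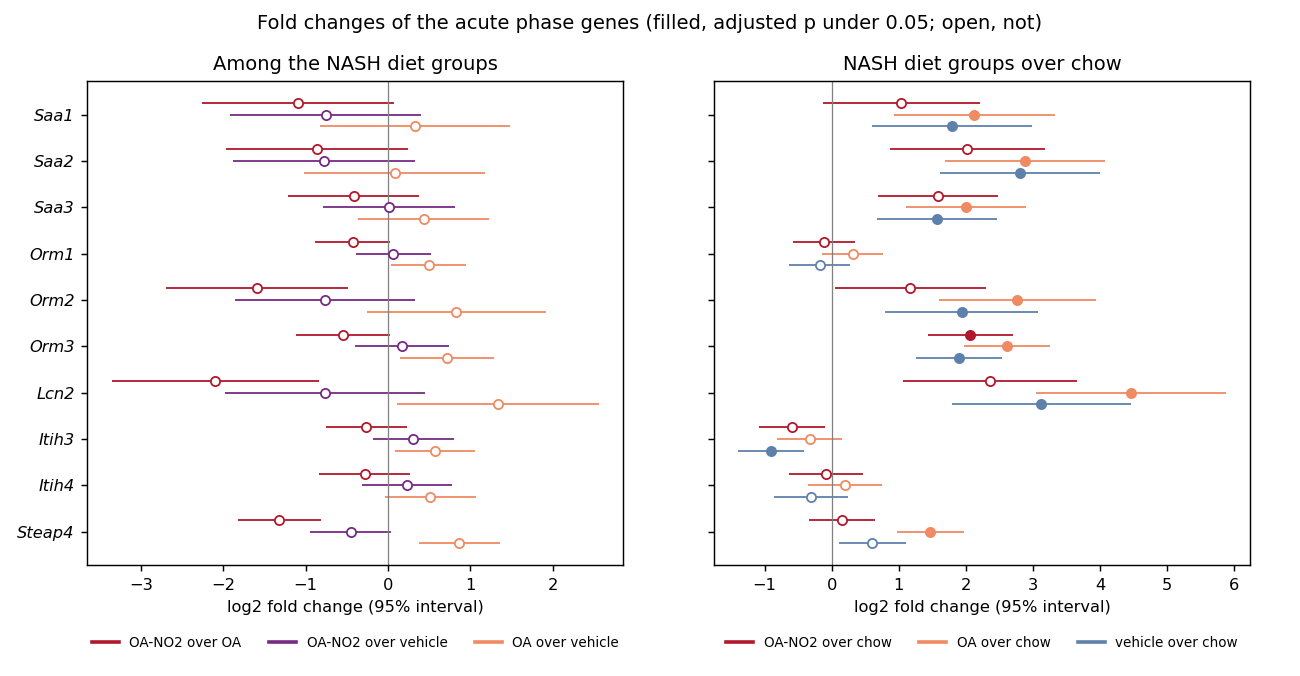
Log2 fold changes with 95% intervals from edgeR for the 10 genes, among the NASH diet groups (left) and against chow (right). Filled points passed an adjusted p under 0.05: against chow 1 with OA-NO2, 7 with OA and 7 with vehicle, and 0 among the NASH diet groups.

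Saa1 and Saa2 encode the major serum amyloid A proteins, small apolipoproteins that join high density lipoprotein during the acute phase. Both rose with vehicle and with OA over chow. Saa2 stood at 106, 81.5 and 78.5 CPM in the OA-NO2 livers, at 189, 231 and 65.4 in the OA livers, at 76.9, 233 and 149 in the vehicle livers, and at 6.39, 32.0 and 25.9 in the chow livers. Every NASH diet liver was above every chow liver, and the 3 NASH diet groups overlapped. The log2 fold change of Saa2 over chow was 2.02 ± 0.54 with OA-NO2, 2.88 ± 0.55 with OA and 2.80 ± 0.55 with vehicle (SE; edgeR adjusted p = 0.0906, 0.00900 and 0.00599). Saa1 stood at 195, 152 and 155 CPM with OA-NO2, at 436, 499.8 and 131 with OA, at 154, 420.3 and 275 with vehicle, and at 25.0, 134 and 84.1 in chow. The lowest OA liver lay just below the highest chow liver, while the OA-NO2 and vehicle livers were above all chow livers. Its log2 fold change over chow was 1.03 ± 0.54 with OA-NO2, 2.12 ± 0.56 with OA and 1.80 ± 0.55 with vehicle (SE; edgeR adjusted p = 0.319, 0.0334 and 0.0382). For Saa1, leaving out any 1 of chow replicates 1 and 3 and vehicle replicates 2 and 3 ended the vehicle call, and any 1 of chow replicates 1 and 3 and OA replicates 1 and 2 the OA call. A fit of the OA and chow livers only also ended the OA call, which held in 6 of 11 alternatives. Saa2 passed in 11 of 11 alternatives with OA and in 11 of 11 with vehicle. With OA-NO2 it passed in 3, which were library size alone, no filter on low counts and DESeq2 (adjusted p = 0.0352, 0.0225 and 0.0386 in edgeR, edgeR and DESeq2).

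The share of Saa2 within the pair was lowest in chow. Saa2 gave 35.4%, 34.9% and 33.7% of the summed Saa1 and Saa2 counts with OA-NO2, 30.2%, 31.6% and 33.3% with OA, and 33.3%, 35.6% and 35.1% with vehicle. In chow its share was 20.4%, 19.2% and 23.5%, below every NASH diet liver. The difference from chow was 13.6 percentage points with OA-NO2, 10.7 with OA and 13.6 with vehicle. Each had a two-sided exact permutation p of 0.1, the smallest that 3 against 3 allows. This share was chosen after the values were seen. Summed into a single row, which does not depend on how reads were split between the copies, Saa1 and Saa2 had a log2 fold change over chow of 1.31 ± 0.55 with OA-NO2, 2.33 ± 0.56 with OA and 2.08 ± 0.56 with vehicle (SE; edgeR adjusted p = 0.221, 0.0237 and 0.0224).

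Saa3 encodes a further serum amyloid A that in mice is made largely outside the hepatocyte, in macrophages and fat among other places. It stood at 11.4, 11.9 and 5.74 CPM with OA-NO2, at 18.8, 12.2 and 7.83 with OA, at 6.34, 15.3 and 7.27 with vehicle, and at 2.96, 3.78 and 2.88 in chow. All 9 NASH diet livers were above the chow livers. Saa3 rose over chow with OA, by 2.00 ± 0.41 on the log2 scale, and with vehicle, by 1.57 ± 0.41 (SE; edgeR adjusted p = 0.0115 and 0.0208). With OA-NO2 the log2 fold change was 1.58 ± 0.41 and did not pass (SE; edgeR adjusted p = 0.0865). The vehicle call was lost without any 1 chow library and without vehicle replicate 2, and the OA call without OA replicate 1. The OA-NO2 value passed in the same 3 alternatives as that of Saa2 (adjusted p = 0.0318, 0.0272 and 0.00560 in edgeR, edgeR and DESeq2).

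The orosomucoids, or alpha-1-acid glycoproteins, are abundant plasma proteins that carry basic and lipophilic molecules. Orm1, the main form, did not pass the test in any comparison. Of the minor forms, Orm3 passed, higher than chow, in all 3 NASH diet groups, and Orm2 passed with OA and with vehicle. Orm1 stood at 519, 685 and 669 CPM with OA-NO2, at 1045, 873 and 607 with OA, at 556, 701 and 537 with vehicle, and at 596, 711 and 728 in chow. Its log2 fold change over chow was -0.12 with OA-NO2, 0.31 with OA and -0.18 with vehicle (edgeR adjusted p = 0.794, 0.383 and 0.577). The OA-NO2 and vehicle values turned to 0.19 and 0.34 with library size alone, and neither passed. On that scale the OA value was 0.76 and passed (edgeR adjusted p = 0.0310), with 26.1% of genes called. Orm3 stood at 17.7, 25.2 and 20.6 CPM with OA-NO2, at 29.0, 34.0 and 29.7 with OA, at 21.3, 24.7 and 10.5 with vehicle, and at 6.86, 4.82 and 3.97 in chow. Here the groups on the NASH diet were all above chow, and all 3 OA livers were above all livers of the other groups. Orm3 rose over chow by 2.06 ± 0.30 with OA-NO2, 2.61 ± 0.30 with OA and 1.90 ± 0.29 with vehicle on the log2 scale (SE; edgeR adjusted p = 0.00871, 0.000972 and 0.00254). It was the only member called in the OA-NO2 livers, and that call was lost without chow replicate 2 or 3.

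Orm2 stood at 35.1, 39.5 and 51.6 CPM with OA-NO2, at 205, 130.2 and 45.2 with OA, at 54.8, 69.9 and 89.5 with vehicle, and at 6.55, 34.2 and 14.0 in chow. The OA-NO2 livers lay below all vehicle livers and above all chow livers, and OA replicate 3 lay among the OA-NO2 livers. Orm2 rose over chow with OA, by 2.77 ± 0.54, and with vehicle, by 1.94 ± 0.53 on the log2 scale (SE; edgeR adjusted p = 0.00953 and 0.0238). With OA-NO2 the log2 fold change was 1.17 ± 0.52 (SE; edgeR adjusted p = 0.246). Leaving out any 1 of vehicle replicates 2 and 3 and chow replicates 1 and 3 ended the vehicle call. As shares of the summed orosomucoid counts, Orm2 gave 6.12% ± 0.849 with OA-NO2, 11.7% ± 4.77 with OA, 10.5% ± 3.08 with vehicle and 2.50% ± 1.83 in chow (SD, n = 3 each). Orm3 gave 3.08% ± 0.294, 3.30% ± 1.05, 2.71% ± 0.928 and 0.767% ± 0.315 in the same groups. For both shares each NASH diet group lay wholly above chow, at the smallest exact permutation p of 0.1. Both shares were chosen after the values were seen. They largely restate the levels of Orm2 and Orm3, and so add no support. The sum of the 3 orosomucoids, dominated by Orm1, had a log2 fold change over chow of -0.03 with OA-NO2, 0.51 with OA and -0.03 with vehicle (edgeR adjusted p = 0.958, 0.170 and 0.944). With OA the sum passed when library size alone was used, at 0.96 (edgeR adjusted p = 0.0155).

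**Figure D3:**
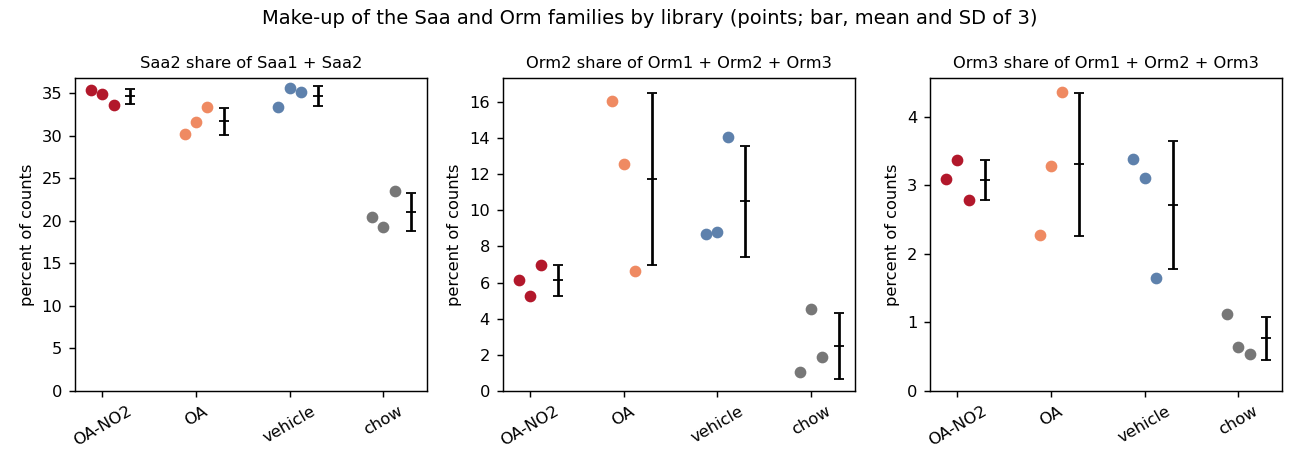
Share of Saa2 in the counts of Saa1 and Saa2 (left), and of Orm2 (middle) and Orm3 (right) in the counts of the 3 orosomucoids, in percent. Points are libraries and bars give the mean and SD of 3. The chow livers lie lowest in each panel, at 19.2% to 23.5% for Saa2.

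Lcn2 encodes lipocalin 2, a secreted protein that binds bacterial siderophores and so withholds iron from microbes. It had the largest fold changes of the 10 over chow. Lcn2 stood at 119, 64.1 and 76.5 CPM with OA-NO2, at 608, 434 and 71.0 with OA, at 83.5, 204 and 154 with vehicle, and at 12.5, 12.2 and 25.4 in chow. All NASH diet livers were above all chow livers, and OA replicates 1 and 2 were above every other liver. Lcn2 rose over chow by 4.46 ± 0.65 with OA and 3.12 ± 0.62 with vehicle on the log2 scale (SE; edgeR adjusted p = 0.00295 and 0.00604). With OA-NO2 the log2 fold change was 2.36 ± 0.60, with a 95% interval from 1.06 to 3.66 (SE; edgeR adjusted p = 0.0820). Lcn2 in the OA-NO2 livers was called by DESeq2, with 4.51% of genes, with library size alone, with 7.79%, with no filter on low counts, with 1.05%, and in a fit of these 2 groups only, with 0.398%. Over all 11 alternatives its adjusted p in edgeR or DESeq2 ran from 0.00904 to 0.244.

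Steap4 encodes a membrane enzyme that reduces iron and copper ions and is known to be induced by inflammatory cytokines. It stood at 137, 120.0 and 149 CPM with OA-NO2, at 444, 337 and 234 with OA, at 138, 183 and 235 with vehicle, and at 131, 116 and 118 in chow. The OA-NO2 livers overlapped the chow livers, whereas the OA livers lay above both, and OA replicate 3 was level with the highest vehicle liver. Steap4 rose over chow with OA, by 1.47 ± 0.23 on the log2 scale (SE; edgeR adjusted p = 0.00456). Its log2 fold change over chow was 0.15 with OA-NO2 (95% interval -0.35 to 0.64; edgeR adjusted p = 0.760) and 0.60 with vehicle (0.11 to 1.10; adjusted p = 0.0830). The vehicle value passed with library size alone (39.8% of genes called), in DESeq2 (22.4%) and without vehicle replicate 1 (15.4%).

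Itih3 and Itih4 encode heavy chains of the inter-alpha-inhibitor family, plasma proteins linked to the handling of hyaluronan. Neither rose with the diet. Itih3 stood at 863, 770.3 and 658 CPM with OA-NO2, at 842, 995 and 914 with OA, at 536, 707 and 609 with vehicle, and at 1099, 802 and 1562 in chow. The vehicle livers were all below the chow livers, and all below the OA livers. Itih3 fell by 0.90 ± 0.23 on the log2 scale with vehicle over chow (SE; edgeR adjusted p = 0.0174), a call lost with library size alone and without chow replicate 3, vehicle replicate 1 or vehicle replicate 3. Its log2 fold change over chow was -0.60 with OA-NO2 and -0.33 with OA (edgeR adjusted p = 0.190 and 0.382). Itih4 averaged 1477 ± 266 CPM with OA-NO2, 1800.3 ± 299.8 with OA, 1259 ± 59.3 with vehicle and 1567 ± 624 in chow (SD, n = 3 each), and was called in 0 of the 6 comparisons. Chow replicate 3, at 2279 CPM, held the highest value of all 12 livers.

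Against the vehicle livers, OA gave a positive log2 fold change for 10 of the 10 genes, where 50.5% of all tested genes were positive, and none passed adjustment. The median over the 10 was 0.54, against 0.00 over all genes. At an unadjusted p under 0.05 there were 5 members (Orm1, Orm3, Lcn2, Itih3 and Steap4), against 3.90% of genes. After adjustment edgeR called 0 members and 0% of genes, and DESeq2 also called 0 members. The largest were Lcn2, at 1.34 (95% interval 0.11 to 2.56), and Steap4, at 0.87 (0.37 to 1.36), each with an edgeR adjusted p of 0.975. Orm3, Itih3 and Itih4 did not overlap between OA and vehicle, all higher with OA, against 13.1% of genes. With OA-NO2 over vehicle, 5 of the 10 log2 fold changes were positive, against 52.0% of genes, and the median was -0.22. There 0 members passed, against 0.0207% of genes, and 0 had an unadjusted p under 0.05, against 15.8% of genes. Saa1, Saa2, Orm2 and Lcn2 had log2 fold changes between -0.78 and -0.76 in that comparison, with edgeR adjusted p from 0.482 to 0.535. Only Orm2 did not overlap, at 35.1 to 51.6 CPM with OA-NO2 against 54.8 to 89.5 CPM with vehicle, where 19.7% of genes did not overlap. For Lcn2 the 95% interval ran from -1.98 to 0.45, so a marked fall and a small rise were both within its error.

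OA-NO2 and OA differ by the nitro group and were infused at the same rate, so that pair is the matched comparison of the compounds. All 10 log2 fold changes of OA-NO2 over OA were negative, where 50.3% of genes were, and the median over the 10 was -0.71. No member passed adjustment over all genes, against 0.00691% of genes called. Steap4 averaged 135 ± 14.6 CPM with OA-NO2 and 338 ± 105 CPM with OA (SD, n = 3 each), and the groups did not overlap. Its log2 fold change was -1.32 ± 0.23 (SE), with a 95% interval from -1.82 to -0.82 and an edgeR adjusted p of 0.243, and it had rank 3 by p among all 14469 genes. DESeq2 called it, with 0.352% of genes, and so did edgeR with no filter on low counts, with 0.0400% of genes. Lcn2 averaged 86.6 ± 28.9 CPM with OA-NO2 and 371 ± 274 CPM with OA (SD, n = 3 each), and OA replicate 3 lay inside the OA-NO2 range. The log2 fold change of Lcn2 was -2.10, with a 95% interval from -3.36 to -0.84 (edgeR adjusted p = 0.313). Orm2 had a log2 fold change of -1.59, with a 95% interval from -2.70 to -0.49 (edgeR adjusted p = 0.328). These 3 were the members with an unadjusted p under 0.05, against 12.0% of genes, and the 2 that did not overlap, Orm3 and Steap4, stand against 14.3% of genes.

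The calls in that comparison depended on OA replicate 3. Without it, edgeR called Lcn2 at a log2 fold change of -2.58 and Steap4 at -1.52 (adjusted p = 0.0143 and 0.0103), with 0.875% of genes called. That library had the lowest OA value for 7 of the 10 genes, these 2 among them. Leaving it out therefore widens the difference by construction, and the calls gained are no support for it. With all 12 livers the interval for Saa1 was -2.26 to 0.08, that for Saa2 was -1.97 to 0.25, and that for Saa3 was -1.22 to 0.38. The intervals for Orm1 (-0.89 to 0.03), Orm3 (-1.12 to 0.02), Itih3 (-0.75 to 0.22) and Itih4 (-0.83 to 0.26) also held 0. Missing the threshold therefore does not show that the compounds act alike on these genes. The comparisons of OA over vehicle and of OA-NO2 over OA use the same 3 OA livers.

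Of 24 other positive acute phase genes of mouse liver, taken from a list, 2 rose and 7 fell with vehicle over chow by edgeR's adjusted p. By the same rule 3 rose and 1 fell with OA over chow, and 0 were called with OA-NO2 over chow. Of all genes, 11.1% were called higher and 8.16% lower with vehicle, 6.33% higher and 2.23% lower with OA, and 0.684% in either direction with OA-NO2, and the counts of the other lists stand against the same shares. The 2 called higher with vehicle are near the share of all genes, and so are no result about the list. The 7 of 24 called lower with vehicle stand above the 8.16% of all genes. The median log2 fold changes of the 24 were -0.14 with OA-NO2, 0.23 with OA and -0.43 with vehicle. Those called with the lowest p with vehicle were Serpina3m, Cd14, Slc39a14 and Itih1. Cd14, the co-receptor for bacterial lipopolysaccharide, rose by 1.79 ± 0.41 on the log2 scale, to 10.8 CPM with vehicle, against 3.07 CPM in chow (SE; edgeR adjusted p = 0.0115). Serpina3m, a protease inhibitor, had a log2 fold change of -1.29 ± 0.23, at 241 CPM with vehicle, against 590 CPM in chow (SE; edgeR adjusted p = 0.00374). Slc39a14, a zinc and iron importer, fell by 0.75 and Itih1, another inter-alpha-inhibitor chain, fell by 0.77 on the log2 scale (edgeR adjusted p = 0.0115 and 0.0137). These counts depended on the scaling. With library size alone, 3 rose and 0 fell with OA-NO2, 9 rose and 0 fell with OA, and 6 rose and 1 fell with vehicle, where 7.79%, 26.1% and 39.8% of all genes were called. Without chow replicate 1, the counts were 0 and 0 with OA-NO2, 0 and 0 with OA, and 1 and 4 with vehicle, where 0.263%, 3.14% and 9.39% of all genes were called.

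Of 8 negative acute phase genes, 0 rose and 3 fell with vehicle over chow, and 0 rose and 2 fell with OA over chow. Of all genes, 8.16% were called lower with vehicle and 2.23% with OA. With OA-NO2 over chow 0 of the 8 were called. Alb, albumin, fell by 1.02 with OA and by 1.39 with vehicle on the log2 scale (edgeR adjusted p = 0.0414 and 0.00701), and its value with OA-NO2 was -0.72 (adjusted p = 0.198). Itih2, a further inter-alpha-inhibitor chain, fell by 0.77 with OA and by 1.19 with vehicle (edgeR adjusted p = 0.0384 and 0.00394). Rbp4, the plasma carrier of retinol, fell by 0.78 with vehicle (edgeR adjusted p = 0.0473). Trf, transferrin, was at 0.44 with vehicle and was not called. Alb, Ttr and Apoa1 of this list are also among the hepatocyte markers below. Of the hepatocyte markers not on this list, Cps1, Tat, G6pc and Pck1 fell by 1.62, 1.49, 1.56 and 1.44 with vehicle (edgeR adjusted p = 0.00647, 0.0231, 0.0369 and 0.0117). Whether the falls belong to the acute phase was not tested. Scaled by library size alone, 1 of the 8 rose and 2 fell with vehicle, where 39.8% of all genes were called.

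**Figure D4:**
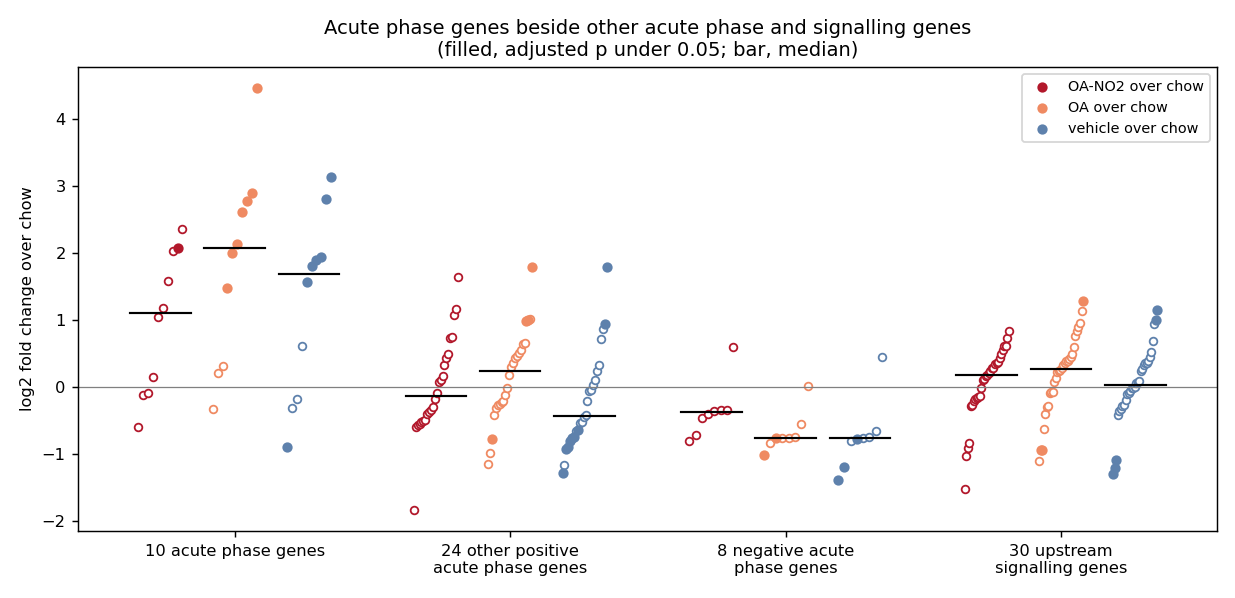
Log2 fold changes over chow for the 10 acute phase genes, 24 other positive acute phase genes, 8 negative acute phase genes and 30 upstream signalling genes. Filled points passed an edgeR adjusted p under 0.05 and bars are medians. The medians of the 10 genes are 1.10 with OA-NO2, 2.06 with OA and 1.68 with vehicle, and those of the 24 are -0.14, 0.23 and -0.43.

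Of 35 genes upstream of the response, 30 had enough counts to be tested. With vehicle over chow, 2 rose and 3 fell, with OA over chow 1 rose and 2 fell, and with OA-NO2 over chow 0 were called. These counts are near the share of all genes called, which was 19.3% with vehicle and 8.56% with OA, and so are no result about the list. All of these calls were receptor genes, of which the list holds many, so this too is no result about the list. Il1rap, the accessory chain of the interleukin 1 receptor, fell by 0.94 with OA and by 1.30 with vehicle on the log2 scale (edgeR adjusted p = 0.0175 and 0.00319). Lifr, the receptor for leukemia inhibitory factor, fell by 0.94 with OA and by 1.10 with vehicle (edgeR adjusted p = 0.0261 and 0.00825). Il6ra, which binds interleukin 6, fell by 1.21 with vehicle (edgeR adjusted p = 0.0215), at 37.6 ± 13.4 CPM with vehicle against 87.4 ± 30.3 CPM in chow (SD, n = 3 each). Il10rb, a chain shared by interleukin 10 and interleukin 22 receptors, rose by 1.15 with vehicle (edgeR adjusted p = 0.00984). Osmr, the oncostatin M receptor, rose by 1.28 with OA and by 0.99 with vehicle (edgeR adjusted p = 0.0125 and 0.0229). Stat3 averaged 88.9 CPM with OA-NO2, 95.1 with OA, 75.2 with vehicle and 100.2 in chow, and was not called. Socs3, the feedback inhibitor induced by STAT3, averaged 7.14 ± 1.13 CPM with OA-NO2, 15.5 ± 2.54 with OA, 16.0 ± 5.05 with vehicle and 19.9 ± 24.4 in chow, and was not called (SD, n = 3 each). Il6 and Tnf were too low to be tested. With library size alone the counts were 13 up and 1 down with OA, and 13 up and 2 down with vehicle. On that scale 26.1% of all genes were called with OA and 39.8% with vehicle. Among the NASH diet groups, 0 genes of the 3 lists were called in any comparison.

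Sums of macrophage, cholangiocyte and stellate cell markers were lowest in the same OA and vehicle libraries as most of the 10 genes. No correlation of these sums with the genes was computed. Of 12 macrophage markers, 9 were called higher and 1 lower with vehicle over chow, and 10 higher and 1 lower with OA over chow. With OA-NO2 over chow 0 were called. Of all genes, 11.1% were called higher and 8.16% lower with vehicle, and 6.33% higher and 2.23% lower with OA. With OA-NO2, 0.684% were called in either direction. The 12 markers had median log2 fold changes over chow of 1.39 with OA-NO2, 2.36 with OA and 2.47 with vehicle. Their summed level was 259 to 326 CPM with OA-NO2, 286 to 581 with OA, 325 to 472 with vehicle and 117 to 247 in chow. Within the OA group it was lowest in replicate 3, and within the vehicle group in replicate 1, the libraries in which most of the 10 genes were lowest. The sum of 7 cholangiocyte markers was 49.9 to 96.9 CPM with OA-NO2, 35.6 to 397 with OA, 73.9 to 495 with vehicle and 26.9 to 44.1 in chow. The low ends were again OA replicate 3 and vehicle replicate 1. The sum of 7 stellate cell markers was 300.2 to 474 CPM with OA-NO2, 350.2 to 863 with OA, 511 to 896 with vehicle and 257 to 309 in chow, with the same libraries low. The other groups were mixed. In chow replicate 1 the macrophage sum, Saa1, Saa2 and Orm2 were at their lowest for chow, but the cholangiocyte sum was at its highest. OA-NO2 replicate 3 held the lowest OA-NO2 values of Saa2 and the macrophage sum, but the highest stellate sum. Whether these cells have a part in the differences among the 10 genes was not tested.

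Neutrophils, which store lipocalin 2 in their granules, had few marker counts. The 12 neutrophil markers summed to 5.44 to 7.30 CPM with OA-NO2, 8.73 to 24.0 with OA, 6.90 to 16.7 with vehicle and 2.65 to 15.3 in chow. The lowest sums with OA and with vehicle were again in OA replicate 3 and vehicle replicate 1, which were also lowest in their groups for Lcn2. Ly6g, which defines mouse neutrophils, had 0 counts in 10 of 12 libraries and at most 1 count. S100a8 averaged 1.14 CPM with OA-NO2, 3.93 with OA, 3.10 with vehicle and 1.31 in chow. None of the 5 neutrophil markers tested was called, and their median log2 fold change with OA-NO2 over OA was -1.39. Whether neutrophils have a part in the differences of Lcn2 was not tested. Adipocyte markers summed to 294 to 345 CPM with OA-NO2, 144 to 234 with OA, 159 to 187 with vehicle and 91.2 to 116 in chow. Cfd and Cidea were the members of that list called over chow, and Adipoq, the defining marker, had 0 counts in 5 libraries and at most 1.86 CPM. The hepatocyte markers summed to 71644 to 104723 CPM with OA-NO2 and 55983 to 94392 with OA. With vehicle the sum was 46492 to 61153 CPM, and in chow 126890 to 154885 CPM. Of the 7, 0 were called with OA-NO2, 1 fell with OA and 5 fell with vehicle over chow. Of all genes, 0.684% were called with OA-NO2, 2.23% fell with OA and 8.16% fell with vehicle.

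**Figure D5:**
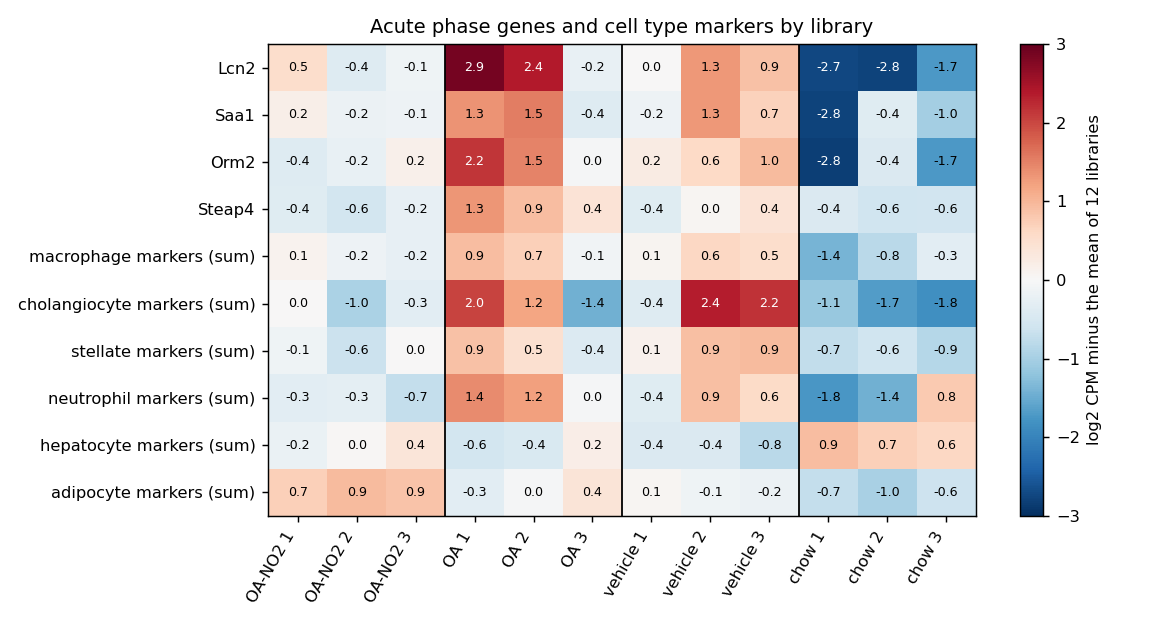
Log2 CPM of 4 acute phase genes and the log2 of the summed CPM of 6 marker lists in each library, minus the mean of the 12 libraries. Red is above and blue below that mean. OA replicate 3 and vehicle replicate 1 are low in Lcn2, Saa1 and the macrophage, cholangiocyte, stellate and neutrophil rows compared with the other libraries of their groups.

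Likeness between genes was measured by Pearson's r of log2 CPM after each group's mean was removed, over the 12 libraries, and is given as a description. Saa1 and Saa2 were the most alike of the 45 pairs of members, at 0.991, and Saa1 and Orm2 reached 0.859. Itih3 and Itih4 reached 0.774, and Lcn2 and Steap4 0.753. The lowest was Orm2 with Itih3, at -0.370. Outside the 10, the genes most like Lcn2 included Il10rb at 0.993 and Hk2 at 0.979. Those most like Saa1 were Cd84, Arhgef6 and Msr1, between 0.941 and 0.952, and those most like Steap4 were Tmem71, Klhl8 and Eid1, between 0.953 and 0.972. For 6 other members, the gene most alike was Adgrl1 for Saa3, Ddx10 for Orm1, Hacd4 for Orm2, 4933440N22Rik for Orm3, Cdk2ap2 for Itih3 and Dedd2 for Itih4, between 0.940 and 0.970. The points share the 12 libraries and their scaling.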

How the data were processed

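Total RNA from 12 mouse livers was sequenced as paired reads of 76 bases, per the labels' protocols. Per the submitters' processing notes, the tools were HTSeq, SAMtools 1.2, HISAT2 2.1.0 and Trimmomatic 0.35, on GRCm38. The sources used here do not state the annotation release, the use of strand or the handling of reads with several positions. The authors deposited unnormalised whole-number counts of reads per gene for 24983 genes, and 24914 identifiers matched a symbol.

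Groups came from the labels, and ear tags show the libraries to be from separate mice. Genes with enough counts (edgeR filter, minimum count 10, minimum total 15) numbered 14469. All 12 libraries entered 1 quasi-likelihood fit in edgeR 4.0.16 (R 4.3.3) with TMM scaling and 1 coefficient per group, and p-values were adjusted by Benjamini-Hochberg over the 14469 genes. Standard errors are the fold change over the square root of F. The biological coefficient of variation was 0.226, and no replicates agreed within sampling noise (lowest chi-square per degree of freedom 24.3). The fit was tested on simulated counts. Alternatives were library size alone, RLE size factors, no filter, the 2 groups alone, DESeq2 1.42.0, summed copies and leaving out each library.

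The members and lists were chosen with earlier results of these data known. All members are named in every comparison, and of each list the called genes with the 4 lowest p in vehicle over chow. The members' likeness was ranked over all other genes, with the 3 highest taken, of which some are not reported here. Osmr, Stat3, Socs3, Il6, Tnf, Cfd, Cidea, Tat, Cps1, G6pc, Pck1, Trf and Slc11a2 were named, and the family shares chosen, after their values were seen. In the list of negative acute phase genes, transferrin is read as Trf.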

Additional observations from a re-analysis of the deposited data

How the results depend on the processing

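No paired analysis was possible because the labels give ear tags and no replicate numbers shared between groups. The count of members called was 7 with vehicle over chow (3 to 7 without a library) and 7 with OA over chow (5 to 7), and stayed within 6 to 8 under the other settings. With OA-NO2 over chow it was 1, but 4 with library size alone, with no filter and with DESeq2, 2 with the 2 groups alone, and 0 to 1 without a library. With OA-NO2 over OA it was 0, but 1 with no filter and with DESeq2 (Steap4 in both) and 0 to 2 without a library. It was 0 in all settings run for OA-NO2 over vehicle and OA over vehicle.

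With library size alone the direction turned for Orm1 (0.19) and Itih4 (0.24) with OA-NO2 over chow, for Itih3 (0.10) with OA over chow, for Orm1 (0.34) and Itih4 (0.20) with vehicle over chow, and for Saa3 (-0.17), Orm1 (-0.15) and Orm3 (-0.042) with OA-NO2 over vehicle, all log2 fold changes that did not pass. Saa3 with OA-NO2 over vehicle was also -0.010 with no filter and -0.0016 in DESeq2. Without a library, the log2 fold change ranged from -0.28 to 0.28 for Itih4 with OA-NO2 over chow, from -0.51 to 0.055 for Itih4 with vehicle over chow, and from -0.26 to 0.52 for Saa2 with OA over vehicle. With OA-NO2 over vehicle it ranged from -0.21 to 0.51 for Saa3, from -0.0093 to 0.19 for Orm1 and from -0.12 to 0.41 for Orm3. The summed orosomucoids over chow were 0.28 with OA-NO2, 0.96 with OA and 0.49 with vehicle under library size alone, of which the OA value passed (edgeR adjusted p = 0.0155). Kept apart, the copies gave 1.17 (Orm2) and 2.06 (Orm3) with OA-NO2, 2.77 and 2.61 with OA, and 1.94 and 1.90 with vehicle over chow, and 0.063 (Orm1) and 0.17 (Orm3) with OA-NO2 over vehicle. The cause of these shifts was not tested.

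Over all genes the calls with OA-NO2 over chow were 99, but 1127 with library size alone, 653 in DESeq2, 262 with no filter, 53 with the 2 groups alone and 15 to 71 without a library. With OA over chow they were 1238, but 3776 with library size alone, 1882 in DESeq2, 776 with the 2 groups alone and 347 to 2232 without a library. With vehicle over chow they were 2786, but 5758 with library size alone and 1200 to 2276 without a library. With OA-NO2 over vehicle they were 3, but 300 in DESeq2, 151 with no filter and 62 with the 2 groups alone. With OA-NO2 over OA they were 1, but 51 in DESeq2, 10 with no filter and 130 without OA replicate 3. The settings for the gene lists were added after the data were seen.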

Other observations

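Genes that answer glucocorticoids, hormones that act with cytokines on the acute phase, included some that fell over chow. Of 9 in a list, 0 were called with OA-NO2 over chow, 1 fell with OA over chow (Hsd11b1) and 3 fell with vehicle over chow. Of all genes, 2.23% fell with OA and 8.16% with vehicle. Hsd11b1, which regenerates active glucocorticoid in the liver, averaged 463 ± 135 CPM with OA-NO2, 319 ± 165 with OA, 239 ± 79.4 with vehicle and 871 ± 209 in chow (SD, n = 3 each). It fell by 1.45 with OA and by 1.86 with vehicle on the log2 scale (edgeR adjusted p = 0.0290 and 0.00638). Tat and Tsc22d3 fell by 1.49 and 1.50 with vehicle (edgeR adjusted p = 0.0231 and 0.0467). Tsc22d3, a standard glucocorticoid target, averaged 111 ± 29.4 CPM with OA-NO2, 43.1 ± 13.0 with OA, 36.1 ± 10.5 with vehicle and 103 ± 91.4 in chow, and was called in 0 comparisons among the NASH diet groups. Scaled by library size alone, 1 of the 9 rose and 1 fell with OA, and 1 rose and 1 fell with vehicle. On that scale 26.1% of all genes were called with OA and 39.8% with vehicle.

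Tested genes of siderophore and iron handling beside Lcn2 and Steap4 numbered 10. Of these, 0 were called with OA-NO2 over chow, 1 rose with OA over chow, and 1 rose and 1 fell with vehicle over chow. These counts are near the share of all genes called, 8.56% with OA and 19.3% with vehicle, and so are no result about the list. Fth1, the ferritin heavy chain, rose by 0.63 ± 0.17 with vehicle on the log2 scale (SE; edgeR adjusted p = 0.0225). Bdh2, which makes the mammalian siderophore, fell by 1.39 with vehicle (edgeR adjusted p = 0.0180), at 8.01 ± 2.78 CPM with OA-NO2, 6.54 ± 3.31 with OA, 4.81 ± 0.973 with vehicle and 12.7 ± 3.36 in chow (SD, n = 3 each). Slc11a2, a transporter of iron into the cell, rose by 0.85 with OA (edgeR adjusted p = 0.0102). Slc22a17, the receptor for lipocalin 2, was below 1 CPM on average in each group. With library size alone, 4 of the 10 rose with OA-NO2, 5 with OA and 5 with vehicle over chow. On that scale 7.79%, 26.1% and 39.8% of all genes were called in these comparisons.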
